A study of Mus musculus with 2 samples.

Results

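The mature B cells described here were 509 of the 10610 bone marrow cells measured, 265 of 5398 cells in the MCAO library and 244 of 5212 cells in the control library. They were picked cell by cell from transcript sums, each in unique molecular identifiers (UMIs, one per captured mRNA molecule) per 10000 UMIs of the cell. A B-lineage cell had at least 15 of Cd79a and Cd79b, the signalling chains of the B cell receptor. It also had under 400 of S100a8 and S100a9, under 20 of the macrophage genes C1qa, C1qb and C1qc, and under 20 of the plasmacytoid dendritic cell genes Siglech, Ccr9 and Cox6a2. Among these, cells under 20 of Vpreb1, Igll1 and Dntt, which belong to pro-B and pre-B cells, and with at least 30 of the MHC class II transcripts Cd74, H2-Aa and H2-Ab1 were class II positive B cells. The last step kept those with at least 15 of Ighd (the IgD heavy chain), Fcer2a (CD23) and Cr2 (CD21). Class II positive B cells under that last value, 119 in the MCAO library and 215 in the control library, are called less mature below.

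The MCAO library came from the middle cerebral artery occlusion model of stroke, in which a main artery of the brain is blocked, and the control library from animals whose disease state is given as control. Both came from male WT mice 8-10 weeks old, as all cells flushed from tibias and femurs after red cell lysis, captured on the BD Rhapsody microwell system. Each group was 1 library, so no comparison between the libraries has a replicate check and none is tested. How many animals each library came from, how long after occlusion they were taken, what surgery the controls had and how long capture took are not given in the sources used here. Intervals are 95% intervals for counting error alone. Recirculation was not measured. The name rests on transcripts that mark B cells able to leave the marrow and return to it.

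B cells arise in the marrow, where a cell that has assembled a heavy and a light chain shows IgM on its surface and passes through an immature stage with CD93 and high CD24. Cells that complete maturation, mostly in the spleen, add IgD by alternative splicing of the same heavy chain transcript, together with CD23, CD21 and higher MHC class II, and then circulate between blood, lymphoid follicles and the marrow. Ciita is the co-activator that switches on class II genes, and the X and Y boxes in their promoters hold the factors that recruit it.

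The promoters below are shown because class II genes set the mature cells apart from the less mature ones in both libraries, and because the immediate early genes Nr4a1 and Fos differed between the libraries. Each runs from 250 bases before to 50 bases after a RefSeq start of the gene on GRCm38.p6, 5′ to 3′ on the gene's own strand. Such promoters were held for 115 of the 152 named genes. In the first 4, capitals mark ATTGG or its reverse complement CCAAT, the core letters of the Y box. These stood 48 bases before the start of H2-Aa (chr17:34287774-34288073, minus strand), 59 and 35 bases before that of H2-Eb1 (chr17:34305617-34305916, plus strand), 100 bases before that of H2-Eb2 (chr17:34325425-34325724, plus strand) and 57 bases before that of H2-Ob (chr17:34238655-34238954, plus strand). On either strand these letters occur in 12289 of 32851 promoters of the same length, 37.4%, so a match is a description and not a binding site.
H2-Aa: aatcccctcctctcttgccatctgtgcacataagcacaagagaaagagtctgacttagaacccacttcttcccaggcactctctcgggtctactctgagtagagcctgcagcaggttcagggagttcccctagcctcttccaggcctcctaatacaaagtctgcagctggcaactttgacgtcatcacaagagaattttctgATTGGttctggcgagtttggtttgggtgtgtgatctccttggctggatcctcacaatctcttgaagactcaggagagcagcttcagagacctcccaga
H2-Eb1: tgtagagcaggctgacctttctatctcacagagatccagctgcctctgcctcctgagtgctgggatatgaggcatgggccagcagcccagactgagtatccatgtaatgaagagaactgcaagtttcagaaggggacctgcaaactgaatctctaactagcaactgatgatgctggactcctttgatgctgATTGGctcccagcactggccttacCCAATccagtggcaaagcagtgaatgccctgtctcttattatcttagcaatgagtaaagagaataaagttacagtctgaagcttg
H2-Eb2: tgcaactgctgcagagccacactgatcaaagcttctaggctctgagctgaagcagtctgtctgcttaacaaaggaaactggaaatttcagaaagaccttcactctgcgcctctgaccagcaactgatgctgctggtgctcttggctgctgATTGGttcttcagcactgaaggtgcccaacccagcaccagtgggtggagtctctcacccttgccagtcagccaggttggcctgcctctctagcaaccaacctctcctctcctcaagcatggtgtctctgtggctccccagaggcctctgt
H2-Ob: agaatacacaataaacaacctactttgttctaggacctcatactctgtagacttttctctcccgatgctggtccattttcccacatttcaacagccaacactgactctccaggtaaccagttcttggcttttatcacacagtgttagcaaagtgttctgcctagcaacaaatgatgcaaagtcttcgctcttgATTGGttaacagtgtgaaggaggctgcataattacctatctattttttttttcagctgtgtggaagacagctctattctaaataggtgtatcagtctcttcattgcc

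In the next 2, capitals mark TGACG or its reverse complement CGTCA, the half-site letters of a cyclic AMP response element. Nr4a1 (chr15:101266596-101266895, plus strand) held 4 such matches, 233, 213, 69 and 40 bases before the RefSeq start used. In the annotation used for gene overlaps Nr4a1 spans chr15:101254269-101274795, so that start lies inside the gene. Fos (chr12:85473640-85473939, plus strand) held 2, at 129 and 66 bases before its start. They occur in 6837 of the 32851 promoters, 20.8%.
Nr4a1: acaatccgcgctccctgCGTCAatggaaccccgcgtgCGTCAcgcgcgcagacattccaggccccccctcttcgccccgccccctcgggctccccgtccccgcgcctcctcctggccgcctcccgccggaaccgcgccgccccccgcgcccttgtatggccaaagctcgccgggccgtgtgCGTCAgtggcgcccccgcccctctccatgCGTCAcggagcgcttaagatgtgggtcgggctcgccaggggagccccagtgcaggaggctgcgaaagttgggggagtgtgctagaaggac
Fos: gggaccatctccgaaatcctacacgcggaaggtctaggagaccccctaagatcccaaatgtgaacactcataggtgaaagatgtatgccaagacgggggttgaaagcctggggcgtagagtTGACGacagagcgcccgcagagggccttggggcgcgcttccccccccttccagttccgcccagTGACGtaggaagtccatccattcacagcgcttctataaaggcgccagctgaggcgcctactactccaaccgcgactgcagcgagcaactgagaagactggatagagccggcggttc

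Mature B cells made up 4.91% of the MCAO library (4.35 to 5.52, Clopper-Pearson) and 4.68% of the control library (4.12 to 5.29). The difference was 0.228 percentage points, with an interval of -0.589 to 1.04 that holds 0. With S100a8 and S100a9 under 100 in place of 400, a setting added after the data were seen, 54 MCAO cells (1.0004%) and 126 control cells (2.42%) remained, a difference of -1.42 points (-1.93 to -0.929). The B lineage as a whole differed far more, with 517 cells (9.58%) in the MCAO library and 953 cells (18.3%) in the control library, a difference of -8.71 points (-10.02 to -7.40). Less mature B cells were 2.20% of the MCAO library and 4.13% of the control library, a difference of -1.92 points (-2.60 to -1.26). B-lineage cells under the class II value were 128 cells (2.37%) in the MCAO library and 475 cells (9.11%) in the control library, a difference of -6.74 points (-7.64 to -5.87). Cells with a surrogate light chain sum of 20 or more numbered 5 in the MCAO library and 19 in the control library.

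Within the B lineage the mature cells were 51.3% of cells in the MCAO library and 25.6% in the control library, a difference of 25.7 points (20.5 to 30.7). Among class II positive B cells alone they were 69.0% (64.1 to 73.6) in the MCAO library and 53.2% (48.5 to 57.8) in the control library, a difference of 15.9 points (9.26 to 22.2). With S100a8 and S100a9 under 100 they were 63.5% in the MCAO library and 52.3% in the control library, a difference of 11.2 points whose interval, -1.05 to 22.6, holds 0. The counts behind these shares were close for the mature cells and far apart for the earlier classes, as given above. The MCAO library was the deeper one, with a median of 4952 UMIs per cell against 3344 in the control library. In mature cells the medians were nearer, 2126 UMIs and 1121 genes in the MCAO library and 1905 UMIs and 1040 genes in the control library. Cells were also thinned to 1000 UMIs before the rule was applied, which left out 33 MCAO and 220 control cells under 1000 UMIs. Mature cells were then 64.7% of class II positive B cells in the MCAO library and 48.1% in the control library.

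**Figure D1:**
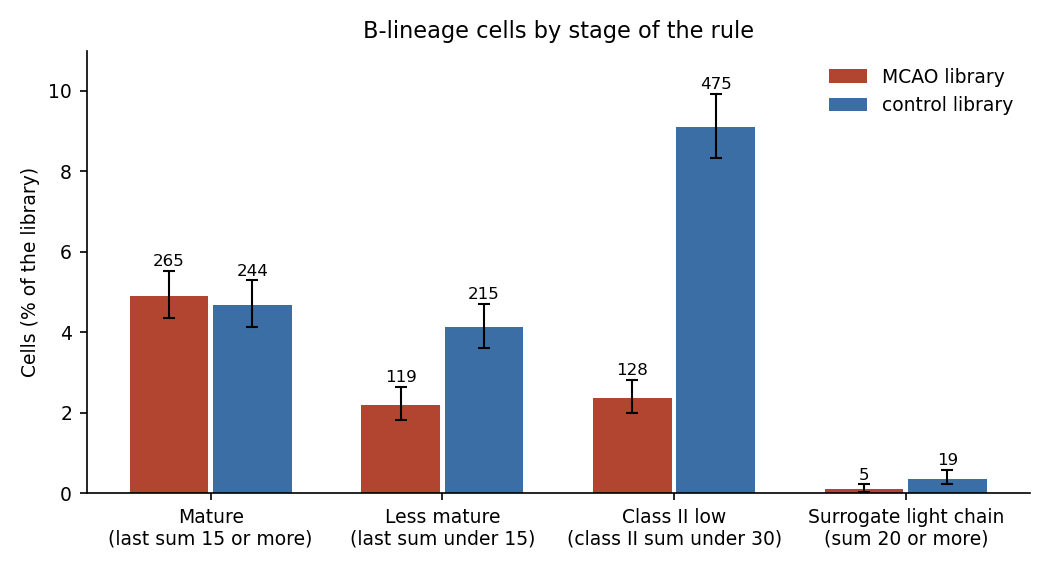
Cells of each B-lineage class as a percentage of all cells of the library, MCAO left of control, with 95% Clopper-Pearson intervals and the number of cells above each bar; each bar is 1 library. The mature bars reach 4.91% (MCAO) and 4.68% (control), while the class II low bars reach 2.37% in the MCAO library and 9.11% in the control library.

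The sum that decided membership had cells on both sides of the threshold in each library. Mature cells had a median of 41.3 UMIs per 10000 of Ighd, Fcer2a and Cr2 in the MCAO library (15.3 to 147) and 39.6 in the control library (15.5 to 132). Just inside the threshold, between 15 and 20, lay 26 MCAO cells and 22 control cells. Just outside it, between 10 and 15, lay 26 MCAO cells and 47 control cells. The sum was 0 in 44 class II positive B cells of the MCAO library and 88 of the control library. Membership rested on a median of 9 UMIs of the 3 genes in the MCAO library and 8 in the control library, and 1 control cell passed on a single UMI. H2-Eb1, a class II beta chain that the rule did not use, was at 21.5 UMIs per 10000 just inside and 11.7 just outside in the MCAO library, and at 16.4 just inside and 12.9 just outside in the control library. Ighm was at 80.4 just inside and 77.7 just outside in the MCAO library, and at 71.2 just inside and 85.1 just outside in the control library.

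**Figure D2:**
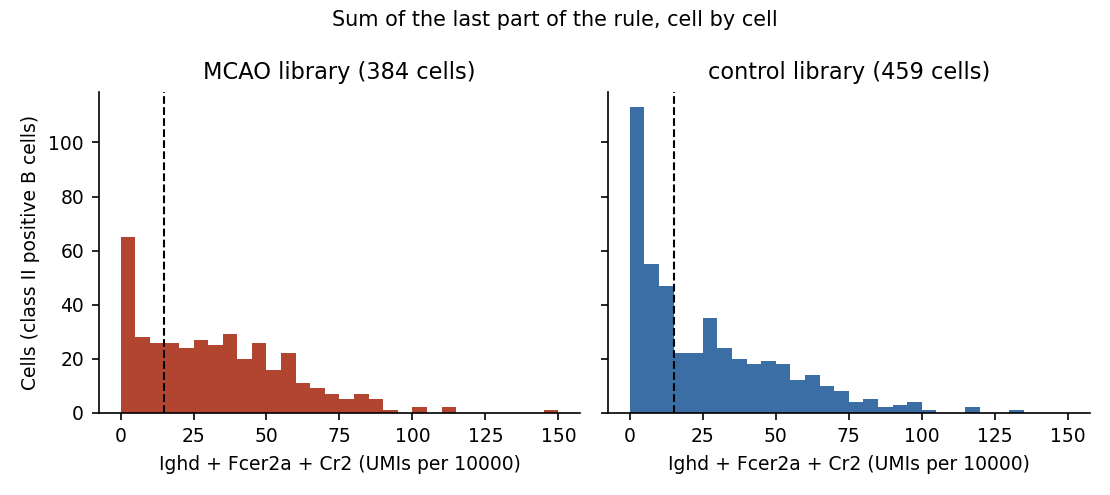
Number of class II positive B cells (vertical axis) by their summed Ighd, Fcer2a and Cr2 UMIs per 10000 (horizontal axis, bins of 5), MCAO library left and control library right; the dashed line is the threshold of 15. Cells lie on both sides of the line in each library, with medians inside it of 41.3 (MCAO) and 39.6 (control).

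The 3 genes did not all appear in every mature cell. Ighd was seen in 262 of 265 mature cells of the MCAO library and 236 of 244 of the control library. Fcer2a, the low-affinity IgE receptor, was seen in 150 cells (56.6%) of the MCAO library and 123 cells (50.4%) of the control library. Cr2, a complement receptor, was seen in 98 cells (37.0%) of the MCAO library and 77 cells (31.6%) of the control library. All 3 were seen in 59 MCAO cells (22.3%) and 41 control cells (16.8%), and Ighd alone in 78 MCAO cells (29.4%) and 89 control cells (36.5%). Outside the B lineage, median depths were 5358 UMIs (MCAO) and 4044 UMIs (control). There Ighd was seen in 12.97% of MCAO cells and 17.7% of control cells, and Fcer2a in 2.58% (MCAO) and 3.57% (control). The part of RNA free in the suspension in these values was not tested. With cells thinned to 1000 UMIs, Fcer2a was seen in 42.6% of MCAO and 35.7% of control mature cells, and of cells outside the B lineage in 1.07% (MCAO) and 1.64% (control).

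As levels, meaning UMIs of the gene per 10000 UMIs summed over the class, the rule's own genes lay close together in the libraries. The same threshold on their sum was applied in both, so this likeness is partly set by the rule. Ighd stood at 33.2 (31.8 to 34.7) in MCAO mature cells and 33.3 (31.7 to 34.9) in control mature cells. Fcer2a stood at 6.17 in MCAO cells and 6.10 in control cells, and Cr2 at 3.76 (MCAO) and 3.16 (control). The label also names Bank1, a B cell adaptor that couples the receptor to calcium release, and Ciita, neither of which the rule used. Bank1 stood at 9.89 in MCAO mature cells, against 6.80 in MCAO less mature cells. In the control library it was 8.32 in mature cells and 4.40 in less mature cells, and outside the B lineage 0.209 (MCAO) and 0.263 (control). Ciita stood at 5.28 in mature and 2.01 in less mature cells of the MCAO library, and at 3.85 in mature and 1.86 in less mature cells of the control library. Both were higher in the mature class in each library. Near the threshold Bank1 was at 11.7 just inside and 8.92 just outside in the MCAO library, and at 5.02 just inside and 5.64 just outside in the control library. Ciita was at 2.45 just inside and 1.34 just outside in the MCAO library, and at 2.42 just inside and 2.16 just outside in the control library. Between the libraries the MCAO over control ratio was 1.19 (1.05 to 1.35) for Bank1 and 1.37 (1.14 to 1.65) for Ciita, both under the 1.5-fold used below as the size past which a gene is counted.

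Ighm, the IgM heavy chain, stood at 58.7 in mature and 98.3 in less mature cells of the MCAO library, and at 63.1 in mature and 100.03 in less mature cells of the control library. More Ighd than Ighm UMIs were found in 67 mature cells (25.3%) of the MCAO library and 63 (25.8%) of the control library. The same count in less mature cells is nearly fixed by the rule, which bounds their Ighd. Igkc, the kappa light chain, stood at 203 in MCAO mature cells and 179 in control mature cells. Cells with more lambda (Iglc) than kappa UMIs numbered 9 of 265 in the MCAO library (3.40%, 1.56 to 6.35) and 23 of 244 in the control library (9.43%, 6.07 to 13.8). In less mature cells they were 11 of 119 (9.24%) in the MCAO library and 23 of 215 (10.7%) in the control library. The share was lowest in MCAO mature cells, and its interval overlapped that of control mature cells, from 6.07% to 6.35%. Overlap of separate intervals does not show that counting error covers the difference, which was not tested.

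Switched isotypes were rare in the mature cells. No MCAO mature cell and 1 control mature cell had more switched heavy chain UMIs than Ighm. Ighg2b, the IgG2b heavy chain, had 48 UMIs in MCAO mature cells and 1 in control mature cells, a ratio of 40.7 (6.96 to 1641). It stood at 3.28 per 10000 in MCAO cells outside the B lineage and 0.00674 in control cells outside it. The gene was thus most abundant outside the class in the MCAO library, and the part of free RNA in its level in mature cells was not tested. Igha, the IgA heavy chain, stood at 0.466 in MCAO mature cells and 0.667 in control mature cells, and at 2.30 (MCAO) and 3.45 (control) outside the B lineage. The 146 heavy and light chain variable genes together had 341 UMIs in MCAO mature cells and 310 in control mature cells, and none of them reached 100.

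Against less mature B cells of the same library, the mature cells were higher in most class II presentation genes and in several homing genes, and lower in genes of the immature stage. This is the contrast the rule itself made, so its values are a description. Of 4025 genes with at least 100 UMIs over the 4 classes, 152 (3.78%) were at least 1.5-fold higher in mature cells in both libraries and 153 (3.8%) at least 1.5-fold lower in both. Of the 4025, 1183 (29.4%) were higher by any size in both libraries and 1312 (32.6%) lower in both, the shares beside which the list counts below stand. The median log2 ratio over all 4025 was -0.02 in the MCAO library and -0.03 in the control library.

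Of the 14 genes of the class II presentation list, 11 reached 100 UMIs, and 10 of these were higher in mature cells in both libraries, 6 of them by 1.5-fold or more, with median log2 ratios of 0.92 (MCAO) and 1.14 (control). H2-Eb2, a class II beta chain gene, stood at 1.30 in mature and 0.216 in less mature cells of the MCAO library, and at 1.00 in mature and 0.0978 in less mature cells of the control library. H2-Eb1 stood at 28.8 in mature and 10.9 in less mature MCAO cells, and at 29.9 in mature and 9.70 in less mature control cells. H2-Ob, a chain of the H2-O modulator of peptide loading, stood at 8.19 in mature and 3.62 in less mature MCAO cells, and at 8.05 in mature and 3.36 in less mature control cells. H2-Aa, from the rule, stood at 54.8 in mature and 23.2 in less mature MCAO cells, and at 53.0 in mature and 17.0 in less mature control cells. These are the genes whose promoters are printed above. Ifi30, a lysosomal thiol reductase that unfolds antigens, went the other way, at 4.46 in mature and 10.5 in less mature MCAO cells and at 4.65 in mature and 10.7 in less mature control cells.

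Among the 18 of 19 homing and egress genes with 100 UMIs, 10 were higher in mature cells in both libraries, 6 by 1.5-fold or more, and 3 were lower in both. Ccr6, a chemokine receptor of mature B cells, had the largest ratio of the genes singled out by the naming rule, at 0.899 in mature and 0.0927 in less mature MCAO cells and at 0.844 in mature and 0.0782 in less mature control cells. Less mature cells held 323615 UMIs of all genes (MCAO) and 511341 (control), so their Ccr6 levels rest on few UMIs. The size of the ratio, and its rank, are uncertain for that reason. Gpr183, the oxysterol receptor that guides B cells in the follicle, stood at 2.11 in mature and 0.742 in less mature MCAO cells, and at 2.81 in mature and 0.548 in less mature control cells. Cxcr5, the follicle-homing receptor, stood at 1.75 in mature and 1.05 in less mature MCAO cells, and at 1.30 in mature and 0.313 in less mature control cells. S1pr1, the receptor for egress into blood, was at 2.58 in mature and 3.15 in less mature MCAO cells and at 2.30 in mature and 2.13 in less mature control cells, with no shared direction. Rgs2, a brake on G-protein signalling, was lower in mature cells, with log2 ratios of -1.10 in the MCAO library and -0.86 in the control library.

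Of the 12 genes of the immature-stage list 6 reached 100 UMIs, and these 6 were at least 1.5-fold lower in mature cells in both libraries, with median log2 ratios of -1.32 (MCAO) and -1.93 (control). Cd93 stood at 0.333 in mature and 1.17 in less mature MCAO cells, and at 0.432 in mature and 1.96 in less mature control cells. Vpreb3, a chaperone of early B cell receptors, stood at 5.64 in mature and 11.7 in less mature MCAO cells, and at 5.00 in mature and 19.3 in less mature control cells. Myb, a transcription factor of progenitors, had the lowest ratios of the list, -2.05 in the MCAO library and -2.21 in the control library on the log2 scale. Cd24a, Tifa and Dnajc7 were the others. Of 14 cell cycle genes, 12 were lower in mature cells in both libraries, 4 of them by 1.5-fold or more. Of 59 ribosomal protein genes, 50 were higher in both, but 1 by 1.5-fold or more, and their summed level was 573 in mature and 484 in less mature MCAO cells and 540 in mature and 412 in less mature control cells.

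**Figure D3:**
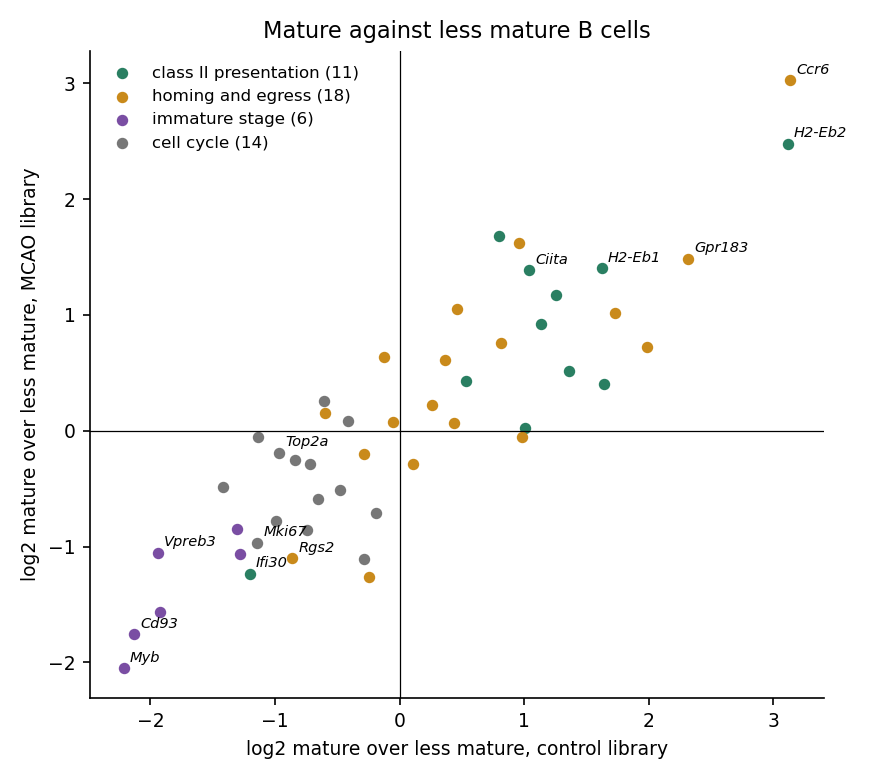
Each point is a gene, placed by its log2 ratio of mature over less mature B cells in the control library (horizontal) and in the MCAO library (vertical); colours give the gene list and the number of genes. Ccr6 (3.03 in the MCAO library, 3.14 in the control library) and H2-Eb2 (2.48 in the MCAO library, 3.12 in the control library) lie furthest up and right, and Myb (-2.05 in the MCAO library, -2.21 in the control library) furthest down and left. The less mature levels of Ccr6 and H2-Eb2 rest on few UMIs.

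By the naming rule the other genes highest in mature cells in both libraries were Lfng, Lax1, Rasgrp3, Pxdc1, Nr4a1, Icosl and Pgap1. Rasgrp3, a Ras activator downstream of the B cell receptor, stood at 4.01 in mature and 1.33 in less mature MCAO cells, and at 3.45 in mature and 1.08 in less mature control cells. Icosl, the ligand of the T cell co-stimulator ICOS, stood at 4.38 in mature and 1.55 in less mature MCAO cells, and at 4.91 in mature and 1.62 in less mature control cells. Akap12, Serinc5, Dusp10, Fam129c, Klhl14 and Nucb2 were among the genes lowest in mature cells. Akap12, a scaffold of protein kinase A, stood at 0.699 in mature and 2.94 in less mature MCAO cells, and at 1.35 in mature and 5.22 in less mature control cells. Ms4a1 (CD20) was also lower in mature cells, at 16.1 in mature and 33.3 in less mature MCAO cells and 18.9 in mature and 32.1 in less mature control cells. Of the transcription factors, Zfp318, which is needed for the splicing that yields IgD, stood at 5.81 in mature and 2.60 in less mature MCAO cells, and at 6.95 in mature and 2.82 in less mature control cells. Spib stood at 8.45 in mature and 19.7 in less mature MCAO cells, and at 9.95 in mature and 22.1 in less mature control cells. Bcl6, the germinal centre regulator, stood at 1.31 in mature and 0.371 in less mature MCAO cells and at 1.20 in mature and 0.450 in less mature control cells.

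Between the libraries, the list with the most members past 1.5-fold was that of immediate early genes, which B cell receptor, chemokine and stress signals switch on fast and briefly, and these members were lower in the MCAO library. Of 2421 genes with at least 100 UMIs over both libraries, 63 (2.6%) were at least 1.5-fold higher in MCAO mature cells and 81 (3.35%) at least 1.5-fold lower, 144 (5.95%) in all. The median log2 ratio of all 2421 was -0.01, and 1233 of them (50.9%) lay below 0. Of the 24 immediate early genes 15 were among them, and 6 of the 15 were past 1.5-fold lower and 0 higher, 13 lay below 0, and the median log2 ratio was -0.54. Many of the 2421 genes rest on few UMIs: with at least 300 UMIs required, 4 were higher and 4 lower of 657. The 4 lower were Cxcr4, Rgs2, Ifi27l2a and CT010467.1, so none of the 6 lower immediate early genes was among them. The 4 higher were Fcer1g, S100a6, Pglyrp1 and Sh3bp5, and the part of RNA from other cells in them was not tested. With cells kept only where S100a8 and S100a9 were under 100, 54 MCAO cells and 126 control cells, 29 genes were higher and 45 lower of 716, and 2 and 4 of these were among the 63 and 81.

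Nr4a1 (NUR77), an orphan nuclear receptor whose transcript follows antigen receptor signalling, stood at 0.949 (0.718 to 1.23) in MCAO mature cells and 3.18 (2.71 to 3.71) in control mature cells. The ratio of MCAO over control was 0.298 (0.217 to 0.406), and the counting intervals of the levels did not overlap. Egr1, a zinc finger factor induced by the same signals, stood at 0.383 (0.243 to 0.574) in MCAO cells and 1.57 (1.25 to 1.95) in control cells, from 23 UMIs (MCAO) and 80 UMIs (control), a ratio of 0.244 (0.146 to 0.392). With S100a8 and S100a9 under 100 the Egr1 counts were 3 UMIs (MCAO) and 55 UMIs (control). Cd69, which holds lymphocytes in tissue by binding S1P receptor 1, stood at 1.15 (0.893 to 1.45) in MCAO cells and 2.41 (2.01 to 2.88) in control cells, a ratio of 0.476 (0.349 to 0.644). Egr3, a relative of Egr1, stood at 1.02 in MCAO cells and 1.92 in control cells. Fos, an AP-1 subunit, stood at 0.949 in MCAO cells and 1.75 in control cells. Dusp1, a phosphatase of MAP kinases, stood at 1.23 in MCAO cells and 2.20 in control cells. These 6 genes are the list members past 1.5-fold lower, so the direction of each was set by that choice. All 81 genes past 1.5-fold lower had ratio intervals that exclude 1, so the separate intervals of these 6 add no support.

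The rest of the list was closer. Junb stood at 4.38 (3.86 to 4.94) in MCAO cells and 6.56 (5.87 to 7.30) in control cells, just short of 1.5-fold. Dusp2, a phosphatase abundant in B cells, stood at 9.85 in MCAO cells and 13.6 in control cells, and Btg2, a brake on division, at 4.66 (MCAO) and 5.87 (control). Jund (11.7 in MCAO cells, 12.3 in control cells), Zfp36 (10.2 in MCAO cells, 9.66 in control cells) and Ier5 (5.61 in MCAO cells, 4.77 in control cells) differed by less, the last 2 with the MCAO library higher. Summed over all 24 members the level was 59.1 (57.2 to 61.1) in MCAO mature cells and 75.1 (72.8 to 77.5) in control mature cells.

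**Figure D4:**
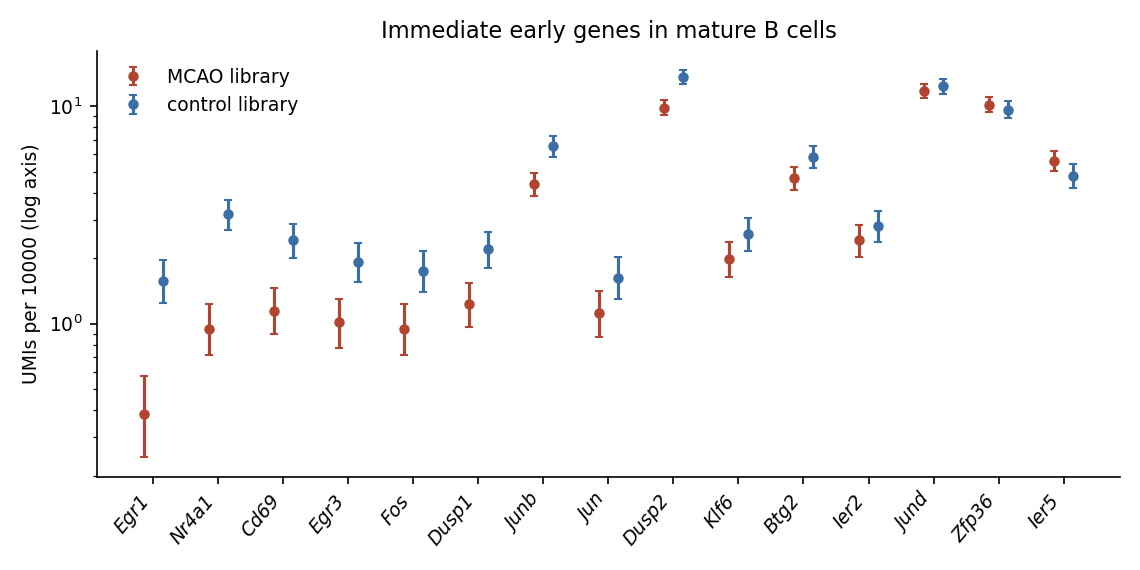
Level of the 15 immediate early genes with at least 100 UMIs in mature B cells (UMIs per 10000, log axis), MCAO point left of the control point for each gene, with 95% Poisson intervals; genes run in order of their MCAO over control ratio. Egr1 is at 0.383 (MCAO) and 1.57 (control) on the left, and Ier5 at 5.61 (MCAO) and 4.77 (control) on the right.

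With cells of at least 1000 UMIs thinned to 1000, at least 1 UMI of the whole list was seen in 261 of 265 MCAO mature cells (98.5%) and 233 of 235 control mature cells (99.1%). At least 1 UMI of the 6 lower genes, which were chosen for their difference, was seen in 92 of 265 MCAO mature cells (34.7%, 29.0 to 40.8) and 124 of 235 control mature cells (52.8%, 46.2 to 59.3). The tenth of cells with the most UMIs of these genes held 46.9% of them in the MCAO library and 44.1% in the control library. Their sums were 5.67 in MCAO mature cells and 13.03 in control mature cells. In less mature cells the sums were 4.64 (MCAO) and 6.004 (control), in class II low B-lineage cells 2.74 (MCAO) and 4.84 (control), and outside the B lineage 6.76 (MCAO) and 10.1 (control).

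The lower level of the list was not confined to mature B cells. Its median log2 ratio over the same 15 genes was -0.20 in less mature B cells and -0.51 in cells outside the B lineage, beside -0.54 in mature cells, and the differences between these medians were not tested. Nr4a1 and Cd69 were lower in the MCAO library in less mature cells too, at 0.309 (MCAO) and 1.11 (control) and at 0.649 (MCAO) and 2.09 (control). Egr1 and Egr3 were not. Egr1 stood at 1.17 in MCAO less mature cells and 0.665 in control less mature cells, a ratio of 1.77 (1.08 to 2.89), and Egr3 at 1.27 (MCAO) and 0.567 (control), a ratio of 2.23 (1.36 to 3.73). The intervals of these ratios did not overlap those of mature cells, 0.146 to 0.392 for Egr1 and 0.377 to 0.734 for Egr3.

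Homing and egress genes differed in both directions. Cxcr4, the receptor for the marrow chemokine CXCL12, stood at 5.26 (4.69 to 5.87) in MCAO mature cells and 9.03 (8.22 to 9.89) in control mature cells, a ratio of 0.582 (0.503 to 0.674). It was lower in the MCAO library in less mature cells (3.43 in MCAO cells, 7.001 in control cells) and outside the B lineage (3.49 in MCAO cells, 4.86 in control cells) as well. Rgs2 stood at 2.90 (2.48 to 3.36) in MCAO cells and 5.75 (5.11 to 6.45) in control cells, a ratio of 0.504 (0.415 to 0.609). Selplg, the ligand of P-selectin, stood at 1.41 in MCAO cells and 0.883 in control cells, and at 4.87 (MCAO) and 5.08 (control) outside the B lineage. Itgb7, a gut-homing integrin chain, stood at 1.85 in MCAO cells and 1.16 in control cells. These 4 were the members past 1.5-fold of the 15 homing and egress genes with 100 UMIs, 2 lower and 2 higher. With S100a8 and S100a9 under 100 the log2 ratio of Selplg was 0.30, short of 1.5-fold, beside 0.67 in all mature cells. Cxcr4 (-1.31), Rgs2 (-1.25) and Itgb7 (0.94) stayed past 1.5-fold in that setting. Over all 2421 genes 3.35% were past 1.5-fold lower and 2.6% higher. The median log2 ratio of the homing and egress list was 0.13. S1pr1 (2.58 in MCAO cells, 2.30 in control cells) and Ccr7 (1.05 in MCAO cells, 1.43 in control cells) stayed within 1.5-fold.

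Of 16 glucocorticoid-responsive genes 6 reached 100 UMIs, and 3 of these were past 1.5-fold lower in MCAO mature cells and 0 higher, with a median log2 ratio of -0.57. Of all 2421 genes 3.35% were past 1.5-fold lower and 2.6% higher. The median log2 ratio of the same 6 genes was -0.25 in less mature B cells and -0.34 outside the B lineage. The 3 lower genes were Cxcr4 and Dusp1, given above, and Sesn1, a stress-induced inhibitor of mTORC1, at 0.632 in MCAO cells and 1.32 in control cells. The log2 ratio of Sesn1 was -1.03, and -2.31 with S100a8 and S100a9 under 100, from 4 UMIs (MCAO) and 48 UMIs (control). Tsc22d3 (GILZ), the classic glucocorticoid target in lymphocytes, stood at 3.31 (2.87 to 3.81) in MCAO cells and 4.26 (3.71 to 4.87) in control cells, and Txnip at 2.98 (MCAO) and 2.71 (control).

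Several lists had no member past 1.5-fold in either direction among genes with 100 UMIs. Among them were the 10 class II presentation genes (median log2 ratio 0.02), 20 receptor signalling genes (-0.04), 9 survival genes (-0.06), 15 class I genes (-0.18), 8 NF-kB genes (-0.18), 50 ribosomal protein genes (0.06) and 40 oxidative phosphorylation genes (0.10). Over all 2421 genes the share past 1.5-fold was 5.95%, so a count of 0 in the shorter lists is near that share. Of the class I genes 11 lay below 0 and 4 above, and of the NF-kB genes 6 below and 2 above. Of all genes 50.9% lay below 0. H2-Eb1 stood at 28.8 in MCAO cells and 29.9 in control cells. Tnfrsf13c, the BAFF receptor that mature B cells need to live, stood at 6.82 in MCAO cells and 7.12 in control cells. Of 17 surface genes, 2 were past 1.5-fold lower: Cd83, an activation marker, at 1.03 in MCAO cells and 1.75 in control cells, and Cd72, a co-receptor, at 0.716 (MCAO) and 1.12 (control). With S100a8 and S100a9 under 100 the log2 ratio of Cd72 was -0.0085, beside -0.63 in all mature cells. Cd38 stood at 2.66 in MCAO cells and 1.86 in control cells.

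Among 21 transcription factors the median log2 ratio was 0.09, with 1 past 1.5-fold each way. Irf4, which receptor signals raise on the way to plasma cells, stood at 0.699 (0.504 to 0.945) in MCAO cells and 1.30 (1.00 to 1.65) in control cells. Spi1 (PU.1) stood at 2.06 in MCAO cells and 1.35 in control cells, and at 3.86 (MCAO) and 4.06 (control) outside the B lineage, where myeloid cells use it. Klf2, which keeps lymphocytes quiescent and drives S1pr1, stood at 11.8 in MCAO cells and 11.95 in control cells. Mef2c was at 9.22 in MCAO cells and 11.9 in control cells, and Bach2, which restrains plasma cell fate, at 4.58 (MCAO) and 6.24 (control). Of 22 interferon-response genes 17 lay below 0, beside 50.9% of all genes, and 1 was past 1.5-fold, beside 5.95%, with a median log2 ratio of -0.14 in mature cells beside -0.54 outside the B lineage. That one was Ifi27l2a, at 5.87 (5.28 to 6.52) in MCAO cells and 9.30 (8.48 to 10.2) in control cells.

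By the naming rule the other genes lowest in MCAO mature cells were CT010467.1, Tgif1, Dusp5, Prkce, Tmed5 and Osbpl9. Tgif1, a repressor of TGF-beta and retinoid targets, stood at 1.18 in MCAO cells and 2.92 in control cells, a ratio of 0.404 (0.300 to 0.540), and in less mature cells at 0.742 (MCAO) and 2.05 (control). Dusp5, a phosphatase of ERK, stood at 0.799 in MCAO cells and 1.79 in control cells. CT010467.1, annotated as ribosomal RNA on chromosome 17, stood at 6.82 in MCAO cells and 16.9 in control cells, and at 7.15 (MCAO) and 16.2 (control) outside the B lineage. It overlaps AY036118 and Gm42418, so its UMIs could belong to either of them, and it was lower in the MCAO library outside the B lineage too. The log2 ratio of CT010467.1 was -1.31, and -0.64 with S100a8 and S100a9 under 100. That of Prkce was -1.08, and -0.52 in the same setting, short of 1.5-fold. The relation of CT010467.1 to the other differences was not tested.

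The genes highest in MCAO mature cells belonged to none of the gene lists. Acp5, tartrate-resistant acid phosphatase, stood at 1.28 (1.01 to 1.60) in MCAO cells and 0.510 (0.333 to 0.748) in control cells, a ratio of 2.51 (1.59 to 4.08) from 77 UMIs (MCAO) and 26 UMIs (control). In less mature cells it stood at 1.08 (MCAO) and 0.900 (control). Kmo, an enzyme of tryptophan breakdown, stood at 1.71 in MCAO cells and 0.903 in control cells, but its log2 ratio of 0.91 was -0.023 in the cells with S100a8 and S100a9 under 100. Cdc25b, a phosphatase that opens mitosis, stood at 1.43 in MCAO cells and 0.707 in control cells. Coro7, Map3k5, Nars, Gemin7, Slc35c1, Senp7 and Vps72 completed the 10, with MCAO levels of 1.13 to 2.26. Without a condition on the level outside the B lineage, Mapk3 (ERK1) stood at 1.26 in MCAO cells and 0.491 in control cells, and at 2.50 (MCAO) and 2.12 (control) outside the B lineage. Of the 63 higher genes, 42 also lay above 0 in less mature cells, and of the 81 lower genes 50 also lay below 0, 66.7% and 61.7%. Of all 2421 genes 51.1% lay above 0 in less mature cells and 48.9% below 0.

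Markers of other cell types were present at unequal levels in the mature cells. The 13 neutrophil genes summed to 70.2 in MCAO mature cells and 59.4 in control mature cells, against 556 (MCAO) and 534 (control) outside the B lineage, and all 11 with at least 100 UMIs lay above 0. Erythroid genes summed to 19.1 in MCAO cells and 15.2 in control cells, against 95.8 (MCAO) and 62.2 (control) outside the B lineage. Less mature cells held a like load, with neutrophil sums of 68.6 (MCAO) and 60.1 (control). S100a6 (5.96 in MCAO cells, 3.75 in control cells) and Anxa2 (1.16 in MCAO cells, 0.687 in control cells), the 2 genes of the B-1 list past 1.5-fold, stood at 27.2 (MCAO) and 21.6 (control) and at 6.77 (MCAO) and 5.66 (control) outside the B lineage. With S100a8 and S100a9 under 100 the log2 ratio of Anxa2 was 0.36, short of 1.5-fold, and that of S100a6 was 0.73. The part of RNA from other cells in S100a6, Anxa2 and Spi1 was not tested. Cd5, the defining B-1 marker, was seen in 0 of 265 MCAO cells, which allows a share of cells with a UMI of up to 1.38% and sets no limit on cells that express the gene, and in 2 of 244 control cells. T cell genes summed to 0.0832 in MCAO cells and 0.255 in control cells with Cd3e at 0 in MCAO cells, and macrophage and conventional dendritic cell genes to 0.233 and 0.216 in MCAO cells and 0.236 and 0.0785 in control cells. The plasmacytoid dendritic cell list summed to 10.95 in MCAO cells and 9.60 in control cells, most of it Irf8 (7.95 in MCAO cells, 6.28 in control cells), a factor that B cells use too. Of plasma cell markers, Sdc1 was at 0 in MCAO cells and at 0.0589 in control cells, and Jchain at 0.0666 in MCAO cells and 0.0981 in control cells.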

How the data were processed

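Single-cell RNA-seq of bone marrow gave 1 MCAO and 1 control library. The deposited table holds natural log values, ln(1 + UMIs per 10000), for 25943 genes in 10610 cells, made by the authors on mm10 with fastp, STAR, UMI-tools and Seurat 4.0.6, per the submitters' processing notes. Whether counting used strand is not given in the sources used here. Whole UMIs were recovered for 100% of values within 0.01 UMI, giving 600901 UMIs in MCAO and 509502 in control mature cells. The column prefixes are romanised Chinese words, read as stroke (MCAO) and control. The table has no mitochondrial genes. Cell names are running labels, so 5120 occur in both libraries, 1 with an equal UMI total.

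Levels are summed UMIs per 10000 with Poisson intervals. Shares have Clopper-Pearson intervals, share differences Newcombe intervals and ratios conditional Clopper-Pearson intervals. Log2 ratios used a pseudocount of 0.02. Scrublet in scanpy 1.11.5 marked 57 MCAO and 63 control cells as doublets (1 of them a mature MCAO cell), which were kept. The ratio script was tested on simulated Poisson sums with no spread between cells or animals. That check covers the computation and cannot bear on such spread in these data. With 1 library per group no test was possible. Members and gene lists were chosen with earlier results of these data known. Named genes were the 10 highest and 10 lowest between the libraries at no less than 0.5 of the level outside the B lineage, the 10 highest and 10 lowest between stages, the rule's genes, and list members furthest from 0 or with most UMIs. Some of these genes are not reported here. Fos, Junb, Zfp36, Ier5, Txnip, Cxcr5, Ccr7, S1pr1, H2-Ob, Ifi30, Zfp318, Spib, Ighg2b, Igha, Sdc1, Jchain, Cd3e and Cd5 were named after their values were seen. So were Fcer1g, Pglyrp1 and Sh3bp5, whose overlaps with other genes were not looked up. Of the named genes, Acp5, Anxa2, Bach2, Bank1, Bcl6, CT010467.1, Cd38, Cd3e, Cd72, Cdc25b, Ciita, Coro7, Cxcr5, Dnajc7, Dusp1, Dusp5, Dusp10, Gemin7, Gpr183, H2-Eb1, Ifi30, Junb, Jund, Klhl14, Kmo, Ms4a1, Myb, Osbpl9, Prkce, Pxdc1, Senp7, Tifa, Tmed5, Txnip, Vpreb3, Zfp318 and Zfp36 overlap another gene on the opposite strand, and their UMIs cannot be told apart from its own without strand.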

Additional observations from a re-analysis of the deposited data

How the results depend on the processing

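The shares were computed again with a last threshold of 10 and of 30, in cells with at least 1000 UMIs, in cells thinned to 1000 UMIs, without marked doublets and with at least 2 UMIs of the last sum. In these settings the library share differed by -0.192 points (threshold 10) to 0.317 points (threshold 30), each within an interval that holds 0, and the share of class II positive B cells by 12.4 to 16.7 points. With S100a8 and S100a9 under 100, added after the data were seen, the library share differed by -1.42 points (-1.93 to -0.929), the opposite sign, and the class II share by 11.2 points (-1.05 to 22.6). The counts of genes past 1.5-fold moved with the cells and genes kept. With S100a8 and S100a9 under 100 they were 29 higher and 45 lower. With at least 50 UMIs they were 257 higher and 283 lower of 4391, and with at least 300 UMIs 4 higher and 4 lower. In the first setting the cells fell to 54 in the MCAO library and 126 in the control library, and the last setting tests fewer genes by construction. The log2 ratio of Kmo was -0.023 with S100a8 and S100a9 under 100, the cause of which was not tested. Of 41 named genes past 1.5-fold, 40 kept their sign under all 8 alternatives, but with S100a8 and S100a9 under 100, 14 moved by over 1.5 times and 7 fell short of 1.5-fold. With a last threshold of 30, 2 moved so far and 10 fell short. Of the values of single named genes under these alternatives, 1140 lay inside the counting interval of the value reported and 75 outside it. The 1 further value, that of Kmo, also lay outside it, with its sign reversed. The median log2 ratio of the immediate early list ranged from -0.63 to -0.48. No paired analysis was possible because each group was 1 library. Depth limits single genes, as the interval of 1.59 to 4.08 around the Acp5 ratio of 2.51 shows, and neither animals nor handling can be told apart from MCAO with 1 library each.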
